A study of Mus musculus with 8 samples.

Results

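At 4520 regions of the mouse genome NANOG was found in both arms of a reprogramming experiment, while BRG1 and H3K27ac were found only with a BRG1-binding NANOG fusion. These regions were selected on the peak lists themselves. Overlapping or touching peaks of FLAG-NANOG and BRG1 from both arms were merged into 93352 regions. A region was kept if it held a FLAG peak of each arm and a BRG1 peak of the fusion arm only, and if it overlapped an H3K27ac peak of the fusion arm and none of the wild-type arm. The 4520 regions are 4.84% of all merged regions, and they are called H3K27ac-gained regions here. Presence and absence of FLAG, BRG1 and H3K27ac peaks therefore chose the regions and are given as descriptions without a test.

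The cells were mouse embryonic fibroblasts (MEFs) at day 5 of reprogramming. Per the methods of the study the MEFs came from mid-gestation embryos of either sex, bred from OG2 males (an Oct4-driven green fluorescent reporter) and 129 females, and received retroviral Oct4 followed by culture in iCD3 reprogramming medium. The NanogWT arm (Nanog+Oct4) also received FLAG-tagged wild-type Nanog. The NanogBiD arm (labelled NanogN70+Oct4) received FLAG-tagged Nanog fused at its N-terminus to the part of SS18 that binds BRG1, and the match of the label to NanogBiD was taken from the text of the study. CUT&Tag, in which an antibody guides a transposase to its target, was done for FLAG, BRG1, H3K27ac and H3K4me1. This gave 8 groups with 1 merged library each. The reporting summary of the study gives a general minimum of repeats for its experiments, but the sources used here do not say how many were merged into each library. With merged lists no difference between arms could be set against the spread between cultures, and no test between arms was made. The infected cells are a mixed population, and a stronger signal per cell cannot be told apart from a signal in more of the cells.

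NANOG is a homeodomain transcription factor of the pluripotency network and acts with OCT4 and SOX2 at many enhancers. BRG1 (Smarca4) is an ATPase of the BAF complex, which moves or evicts nucleosomes, and SS18 is a BAF subunit. H3K27ac marks active enhancers and promoters. H3K4me1 marks enhancers more broadly, including those that are primed but not active.

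The sequences below surround the NanogBiD FLAG summits of regions described by name. Each holds the plus strand of GRCm38 (the same assembly as mm10), 50 bp either side of the NanogBiD FLAG summit, and is named by the nearest protein-coding gene. A summit does not show which bases were bound. The NanogWT FLAG summit lay outside some of these windows, 672 bp away at Adamtsl1 and 1109 bp away at Zbtb20. Capitals mark matches, on either strand, to the motifs searched: TAATGG (the core bound by NANOG), TGACTCA (AP-1, bound by FOS and JUN), ATGCAAAT (the octamer bound by OCT4), ACAATGG or ACAAAGG (SOX), TGTGGTT (RUNX), GGAATG (TEAD), GGGTGTGG (KLF) and a composite OCT-SOX site made of TTGT, any base and ATGCAAA. The octamer shares 7 letters with the composite site. The first 6 sequences belong to the regions with the strongest peaks, ranked by the lowest of their 3 NanogBiD scores. Frg1 has 2 NANOG cores that face each other, and the other 5 hold none of these letters.
Adamtsl1, chr4:85764620-85764720: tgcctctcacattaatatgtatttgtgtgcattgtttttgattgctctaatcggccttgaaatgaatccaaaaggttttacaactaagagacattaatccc
Frg1, chr8:41787200-41787300: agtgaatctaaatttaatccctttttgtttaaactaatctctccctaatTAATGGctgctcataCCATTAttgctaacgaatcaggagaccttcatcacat
Zbtb20, chr16:42781351-42781451: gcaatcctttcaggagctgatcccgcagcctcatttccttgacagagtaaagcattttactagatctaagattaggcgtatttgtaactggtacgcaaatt
Tfap2a, chr13:40575373-40575473: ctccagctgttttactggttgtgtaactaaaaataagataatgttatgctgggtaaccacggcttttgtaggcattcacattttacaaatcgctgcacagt
Tm4sf1, chr3:56981211-56981311: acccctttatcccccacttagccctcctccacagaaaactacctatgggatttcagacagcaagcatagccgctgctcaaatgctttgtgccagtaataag
Atg4a-ps, chr3:103683448-103683548: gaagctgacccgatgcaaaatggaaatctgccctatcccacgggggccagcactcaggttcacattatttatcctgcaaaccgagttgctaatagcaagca

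The next 5 belong to strong regions whose nearest gene is a pluripotency, epithelial or SOX family gene. The Sox11 window holds 2 NANOG cores, Nr5a2 and Klf4 hold an AP-1 site each, and Sox5 holds a RUNX site.
Sox11, chr12:27097926-27098026: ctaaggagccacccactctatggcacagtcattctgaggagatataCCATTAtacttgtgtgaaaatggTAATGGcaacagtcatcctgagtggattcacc
Nr5a2, chr1:137133928-137134028: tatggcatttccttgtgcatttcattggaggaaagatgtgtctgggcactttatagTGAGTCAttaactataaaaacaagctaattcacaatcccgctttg
Sox14, chr9:99839219-99839319: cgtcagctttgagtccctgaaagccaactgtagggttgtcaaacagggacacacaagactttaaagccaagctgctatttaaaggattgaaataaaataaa
Klf4, chr4:55921501-55921601: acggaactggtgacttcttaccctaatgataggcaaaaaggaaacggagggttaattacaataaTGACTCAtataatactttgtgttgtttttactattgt
Sox5, chr6:143631550-143631650: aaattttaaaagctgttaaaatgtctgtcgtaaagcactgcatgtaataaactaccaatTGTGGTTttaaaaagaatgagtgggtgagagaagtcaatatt

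The last 4 are all H3K27ac-gained regions with a composite OCT-SOX match at the NanogBiD FLAG summit. In each the capitals are the composite site read on the minus strand, and at Gtpbp4 the match extends over an octamer.
Tmem117, chr15:95029011-95029111: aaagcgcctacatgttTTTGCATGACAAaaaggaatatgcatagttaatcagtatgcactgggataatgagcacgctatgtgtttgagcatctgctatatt
Pla2g4a, chr1:149383075-149383175: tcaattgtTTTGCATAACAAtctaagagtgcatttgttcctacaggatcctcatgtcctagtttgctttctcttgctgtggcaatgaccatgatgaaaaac
Ctnnd1, chr2:84597254-84597354: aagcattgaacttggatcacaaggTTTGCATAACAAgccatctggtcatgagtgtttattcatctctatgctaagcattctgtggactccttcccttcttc
Gtpbp4, chr13:9013671-9013771: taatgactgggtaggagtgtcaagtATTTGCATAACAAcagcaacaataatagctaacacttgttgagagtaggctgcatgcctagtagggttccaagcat

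Of the 93352 merged regions, 44464 carried NANOG in each arm. Of these, 14212 had a BRG1 peak in NanogBiD only, or 32% (95% Wilson interval 31.5 to 32.4), beside 30.2% of all merged regions. Intervals on shares cover counting error only. H3K27ac was gained in 4520 of the 14212, or 31.8% (31.0 to 32.6). An H3K27ac peak in NanogBiD only was found in 13.1% of all merged regions, and nothing is read from this contrast because it chose the regions. Of the other regions with BRG1 in NanogBiD only, 2968 had H3K27ac in both arms (H3K27ac-kept), 6165 had it in neither arm and 559 had it in NanogWT only. The kept regions and those without H3K27ac share the NANOG and BRG1 pattern and are the classes used for comparison below.

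H3K27ac gain was also counted by BRG1 state among shared NANOG regions without an H3K27ac peak in NanogWT. With BRG1 in NanogBiD only, the share was 42.3% (41.4 to 43.2) of 10685. With BRG1 in both arms it was 63.8% (62.0 to 65.5) of 2832. With BRG1 in NanogWT only, 135 of 456 regions gained H3K27ac, 29.6% (25.6 to 34.0), and with BRG1 in neither arm 750 of 5599, 13.4% (12.5 to 14.3). The mirrored rule, with BRG1 and H3K27ac in NanogWT only, gave 287 of 1427 regions, 20.1% (18.1 to 22.3). The NanogBiD lists were longer, with 53748 BRG1 peaks against 30859 and 42598 H3K27ac peaks against 35452. All these shares rest on the calls that chose the regions, so no difference between them is read as a result.

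Many of the peaks that chose the regions were weak. The score of a peak is the significance given by the peak caller, on which 50 was the lowest value in every list, and the summit height is the number of tags piled up at its highest point. The NanogBiD H3K27ac peaks of gained regions had a median height of 13 tags (quartiles 11 to 15) and a median score of 84.8. In kept regions these medians were 15 tags and 117, and at shared NANOG regions with BRG1 in both arms the height was 22 tags. The H3K27ac score was under 60 in 804 of the 4520 regions, 17.8%, and at least 100 in 36.2%. BRG1 scores were under 60 in 6.02% and FLAG scores in 9.12% for NanogWT and 1.19% for NanogBiD. All 3 NanogBiD scores were at least 100 in 1355 regions (28.7% to 31.3%). Just outside the rule, 428 regions were excluded only by a NanogWT BRG1 peak with a score under 60 and 467 only by such an H3K27ac peak.

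NanogWT peaks of BRG1 or H3K27ac were seldom found close by. A NanogWT BRG1 peak lay within 1 kb of 107 regions, 2.37%, and within 5 kb of 11.6%. For NanogWT H3K27ac the shares were 3.92% and 14.5%. The rule allowed no such peak in the region itself, and these shares were not counted for other classes, so nothing is read from them. The regions were also scattered. Only 240, 5.31%, had another gained region within 10 kb, and the longest chain held 3. A region where FLAG, BRG1 and H3K27ac were all in NanogBiD only lay within 10 kb of 3.25% (2.77 to 3.81) of gained regions, 4.21% (3.55 to 5.0) of kept regions and 2.0% (1.67 to 2.38) of those without H3K27ac.

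The summits lay close together, much as at other shared NANOG regions. The FLAG summits of the arms were a median of 71 bp apart, beside 76 bp over all shared regions, 69 bp in those without H3K27ac and 90 bp in kept regions. They were within 100 bp of each other in 60.4% of gained regions and 58.3% of all shared regions. The NanogBiD BRG1 summit was a median of 61 bp from the NanogBiD FLAG summit, beside 63 bp without H3K27ac and 80 bp in kept regions. The H3K27ac summit was 94 bp away, beside 121 bp in kept regions. Gained regions had a median width of 1225 bp, so the median distances are short beside the width.

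Although NANOG was called in both arms, its summit was usually higher in NanogBiD. FLAG heights had a median of 14 tags in NanogWT (quartiles 11 to 19) and 22 in NanogBiD (17 to 29). The summit was higher in NanogBiD in 82.5% of gained regions, beside 58.6% of all shared NANOG regions, 62.2% of kept regions and 70.9% of those without H3K27ac. The median log2 ratio of NanogBiD over NanogWT was 0.58 (order-statistic 95% interval 0.55 to 0.58, quartiles 0.18 to 1.0). Over all shared NANOG regions the median was 0.15. It was 0.21 in kept regions, 0.38 in those without H3K27ac and 0.10 where BRG1 was in both arms. A FLAG summit at least 1.5-fold higher was found in 2270 gained regions, 50.2% (48.8 to 51.7), beside 21.9% of all shared regions. A summit at least 1.5-fold lower was found in 104, 2.30% (1.90 to 2.78), beside 8.46%. The FLAG call was part of the rule and heights are whole tag numbers with no sign of scaling to depth, so the offset of 0.15 over all shared regions includes any difference between the FLAG libraries. The rule also required BRG1 and H3K27ac peaks in NanogBiD and none in NanogWT, which favours regions with more NanogBiD signal. The direction of the FLAG change is therefore given as a description only.

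**Figure D1:**
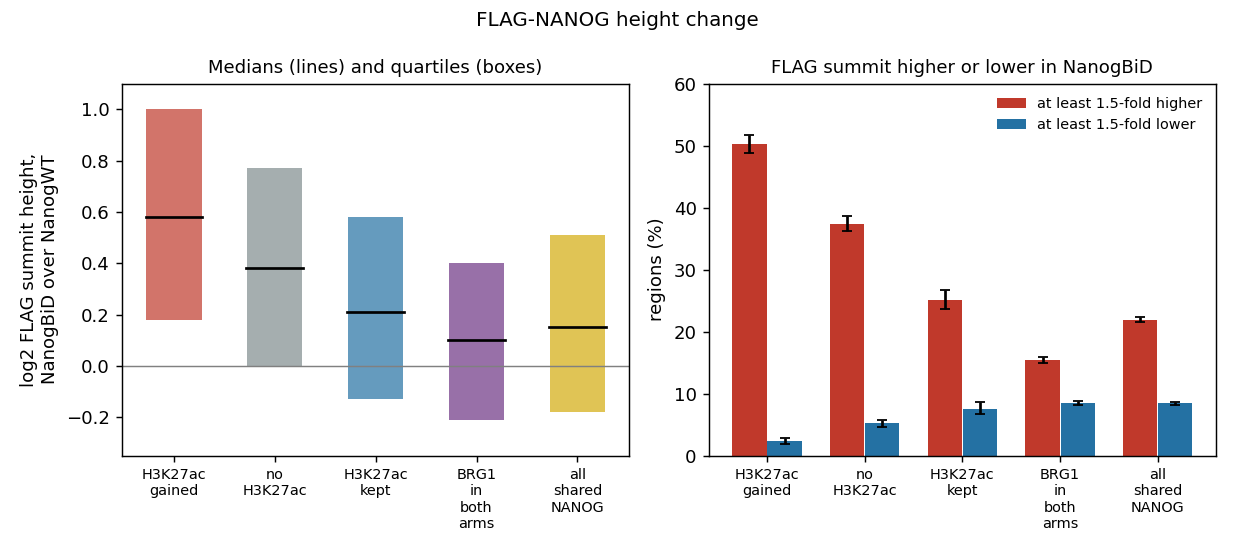
Left, log2 ratio of FLAG summit height, NanogBiD over NanogWT (y axis), as medians (lines) and quartiles (boxes) by class of region; right, share of regions (y axis, %, with Wilson 95% intervals) with a FLAG summit at least 1.5-fold higher or lower in NanogBiD, by the same classes. The gained regions have the highest median of the classes drawn, 0.58, and 50.2% of them have a FLAG summit at least 1.5-fold higher. Split by NanogBiD FLAG height (not drawn), this share had overlapping intervals in gained regions and regions without H3K27ac.

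Gained regions also had higher NanogBiD FLAG summits than regions without H3K27ac, with a median of 22 tags against 17. A FLAG summit at least 1.5-fold higher was found in 37.4% (36.2 to 38.6) of regions without H3K27ac and 25.1% (23.6 to 26.7) of kept regions. NanogBiD height is part of the ratio, so these measures are not independent of each other. The share with a summit at least 1.5-fold higher was split by NanogBiD FLAG height, after the data had been seen. Under 15 tags it was 10.6% (8.54 to 13.2) of gained regions and 8.87% (7.73 to 10.2) of those without H3K27ac. At 15 to 24 tags it was 43.2% (41.1 to 45.4) and 46.5% (44.8 to 48.3). At 25 tags or more it was 72.8% (70.7 to 74.8) and 71.1% (68.1 to 74.0). These intervals overlapped in each height class. Kept regions had 5.68%, 24.6% and 47.3%.

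Within gained regions the BRG1 and FLAG heights of NanogBiD went together, with a Spearman correlation of 0.77 across 4520 regions. The FLAG change correlated with BRG1 height at 0.39 and with H3K27ac height at 0.14, and BRG1 with H3K27ac height at 0.39. In 2968 kept regions the same 4 values were 0.75, 0.37, 0.26 and 0.41. These are descriptions across regions of the same libraries, which share tag depth and local accessibility, and regions are not independent replicates. Median BRG1 height in NanogBiD was 14 tags in gained, 13 in kept and 11 in regions without H3K27ac.

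H3K4me1 was not used to choose the regions. In gained regions it was present in both arms in 1898, 42.0% (40.6 to 43.4), in NanogBiD only in 899, 19.9% (18.8 to 21.1), in NanogWT only in 532, 11.8% (10.9 to 12.7), and in neither arm in 1191, 26.3% (25.1 to 27.7). Over all merged regions, H3K4me1 was found in NanogBiD only in 9.52% and in NanogWT only in 13.9%, so the order of the arms was the opposite there. In NanogWT, 53.8% (52.3 to 55.2) of gained regions carried the mark without an H3K27ac or BRG1 peak there, beside 50.1% of all merged regions, 68.2% of all shared NANOG regions, 73.6% of kept regions and 37.8% of regions without H3K27ac. Kept regions had H3K4me1 in NanogBiD only in 9.97% (8.95 to 11.1) and in NanogWT only in 15.1% (13.9 to 16.4). Regions without H3K27ac had 14.7% (13.8 to 15.6) and 14.8% (13.9 to 15.7), and 47.5% had no H3K4me1 peak.

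The excess of NanogBiD-only over NanogWT-only H3K4me1 at gained regions depended on the peak threshold. With scores of at least 100 in all lists the shares were 12.9% and 14.4%. The interval of their difference, -3.53 to 0.503 percentage points, reached both directions, so the arms were not apart. With heights of at least 15 tags the shares were 14.0% and 18.3%, so the order was turned (-6.75 to -1.89 points). The order between classes was kept in all 10 alternatives: the NanogBiD-only share was higher in gained regions than in regions without H3K27ac. The margin was smallest, 20.3% (17.9 to 22.8) against 19.2%, when presence needed a score of at least 100 and absence no peak at all, and there it was within counting error. The NanogBiD H3K4me1 list held 57156 peaks and the NanogWT list 72242, and its heights were lower at shared regions. Where H3K4me1 was called in both arms, its median log2 height ratio was -0.09 in gained regions (n = 1898), -0.18 in kept regions and -0.18 over all shared NANOG regions.

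**Figure D2:**
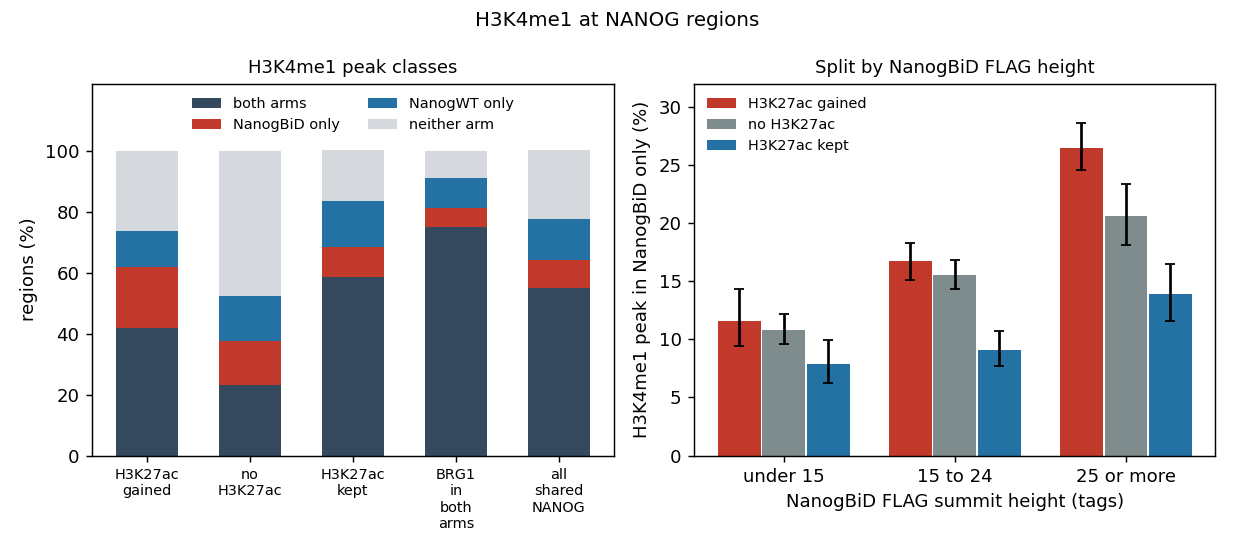
Left, share of regions (y axis, %) by arms with an H3K4me1 peak, for each class of region; right, share with an H3K4me1 peak in NanogBiD only (y axis, %, with Wilson 95% intervals) by NanogBiD FLAG height in tags (x axis). Gained regions have the largest NanogBiD-only share of the classes drawn, 19.9%, and at 25 tags or more it is 26.5% against 20.6% without H3K27ac and 13.9% with H3K27ac kept.

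H3K4me1 in NanogBiD only was most frequent where the FLAG summit was higher in NanogBiD. At gained regions with a FLAG summit at least 1.5-fold higher it was found in 25.9% (24.1 to 27.7), and in NanogWT only in 9.07% (7.96 to 10.3). Between the limits the shares were 13.8% (12.4 to 15.3) and 14.5% (13.1 to 16.0), and where the summit was at least 1.5-fold lower they were 15.4% (9.70 to 23.5) and 14.4% (8.94 to 22.4) of 104. The classes with a lower or a similar summit were thus not apart. Regions with H3K4me1 in NanogBiD only had median FLAG heights of 14 tags in NanogWT and 26 in NanogBiD, a median log2 ratio of 0.82, against 0.42 for regions with H3K4me1 in NanogWT only. Split by NanogBiD FLAG height, a split chosen after the data had been seen, gained regions had H3K4me1 in NanogBiD only in 11.6% (9.46 to 14.3) under 15 tags, 16.7% (15.1 to 18.3) at 15 to 24 tags and 26.5% (24.6 to 28.6) at 25 tags or more. In NanogWT only it was found in 15.3% (12.8 to 18.2), 13.2% (11.8 to 14.7) and 8.92% (7.70 to 10.3), so under 15 tags the NanogWT-only share was the larger, with overlapping intervals. Regions without H3K27ac had H3K4me1 in NanogBiD only in 10.8% (9.57 to 12.2), 15.5% (14.3 to 16.8) and 20.6% (18.1 to 23.4). The intervals of these classes were apart only at 25 tags or more.

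Most gained regions lay in introns or between genes. A promoter, 2 kb either side of an annotated start site, was overlapped by 612 regions, 13.5% (12.6 to 14.6). A further 44.2% lay in introns, 39.9% between genes and 2.35% in exons. Over all merged regions the shares were 24.4% in promoters, 38.7% in introns, 34.7% between genes and 2.29% in exons, so introns and intergenic sequence held most regions there too. Promoters held 23.3% of kept regions, 11.3% of those without H3K27ac and 49.8% of shared NANOG regions with BRG1 in both arms. The median distance to a protein-coding start site was 37.8 kb, between 24.8 kb for kept regions and 46.2 kb for those without H3K27ac. Of gained regions 43.9% were more than 50 kb away, beside 35.6% of kept regions, 48.4% of those without H3K27ac and 35.4% of all merged regions. The GC content within 250 bp of the summit had a median of 42.5%, between 44.7% in kept regions and 40.7% in those without H3K27ac. Among regions with shared NANOG and BRG1 in NanogBiD only, the gained share was between 29.3% and 34.5% on each autosome. On chromosome X it was lower, 60 of 276 regions, 21.7% (17.3 to 27).

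Motifs were counted in windows of 50 bp either side of the NanogBiD FLAG summit and in windows of the same length 1 kb downstream. The NANOG core was found at 10.9% (10 to 11.8) of gained summits and in 4.2% of distant windows. It was found at 6.15% of all shared summits, 7.45% (6.56 to 8.45) of kept summits and 8.92% (8.24 to 9.66) of those without H3K27ac. The OCT octamer was found at 3.76% (3.24 to 4.36) of gained summits against 0.619% in distant windows, and at 2.25% of all shared, 2.36% (1.87 to 2.97) of kept and 2.79% (2.41 to 3.23) of summits without H3K27ac. AP-1 sites, common in fibroblast enhancers, were found at 7.30% (6.58 to 8.10) of gained summits and 1.88% of distant windows. The AP-1 share was higher, 9.05% (8.36 to 9.79), in regions without H3K27ac, and 7.70% over all shared summits.

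**Figure D3:**
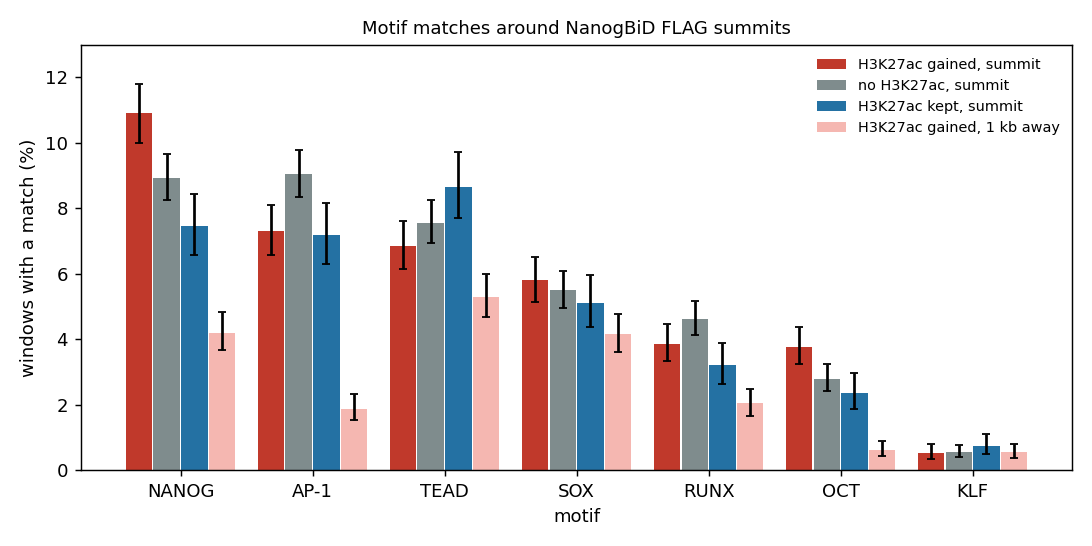
Share of windows (50 bp either side of a position) with a match (y axis, %, with Wilson 95% intervals) for 7 motifs (x axis) at NanogBiD FLAG summits of 3 classes of region and, for gained regions, 1 kb away. The NANOG and OCT bars of gained regions are the tallest of their groups, at 10.9% and 3.76%, and the AP-1 bar is lower than that of regions without H3K27ac.

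SOX sites were found at 5.80% (5.15 to 6.52) of gained summits, 4.44% of all shared summits, 5.50% of those without H3K27ac, 5.12% of kept summits and 4.16% of distant windows. TEAD sites were found at 6.84% (6.14 to 7.61) of gained, 7.01% of all shared, 7.56% of no-H3K27ac and 8.66% (7.70 to 9.72) of kept summits, and in 5.29% of distant windows. RUNX sites were found at 3.87% (3.35 to 4.47), 3.38%, 4.62% and 3.20% of the same classes and in 2.04% of distant windows, and KLF sites at 0.531%, 0.828%, 0.552% and 0.741% and in 0.553%. The composite OCT-SOX site was found at 4 gained summits and at 23 of all shared summits. At the 2270 gained regions with a FLAG summit at least 1.5-fold higher, the NANOG core was found in 12% (10.7 to 13.4) and AP-1 in 8.72% (7.63 to 9.95). At the 104 with a summit at least 1.5-fold lower these shares were 4.81% (2.07 to 10.8) and 1.92% (0.529 to 6.74). A match describes letters in the window and does not show which factor was bound.

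The NANOG core also followed FLAG height. In gained regions it was found at 5.82% of summits under 15 tags, 9.57% at 15 to 24 tags and 14.3% (12.8 to 16.0) at 25 tags or more. In regions without H3K27ac the shares were 6.15%, 8.93% and 15.3% (13.1 to 17.7), with overlapping intervals in each height class. At the NanogWT FLAG summits of the same regions the core was found in 8.03% of gained regions and 8.26% of those without H3K27ac. The octamer was found in 3.06%, 3.49% and 4.32% of gained summits across the height classes, and in 2.53%, 2.72% and 3.62% without H3K27ac, with intervals that overlapped in each. The AP-1 share was below that of regions without H3K27ac in each height class, 5.68% (4.18 to 7.67) against 8.21% (7.11 to 9.46) under 15 tags, 7.58% (6.50 to 8.82) against 9.59% (8.62 to 10.7) at 15 to 24 tags and 7.61% (6.48 to 8.91) against 9.11% (7.41 to 11.2) at 25 tags or more, with intervals that overlapped as well.

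The strongest gained region lay in an intron of Adamtsl1, which encodes a secreted matrix glycoprotein, on chromosome 4 from 85762566 to 85765291. Its FLAG summit was 24 tags high in NanogWT and 55 in NanogBiD. The NanogBiD summits of BRG1 and H3K27ac had 30 and 23 tags. H3K4me1 was at 12 and 13 tags in the arms, so the mark that did not choose the region was about level. The Atg4a-ps region, on chromosome 3 from 103682400 to 103684383, had FLAG at 13 and 50 tags, BRG1 at 26 and H3K27ac at 23, and its H3K4me1 summit was also higher in NanogBiD, 22 tags against 15. The Tfap2a region, 153 kb from this gene for a transcription factor of ectoderm and neural crest, had FLAG at 21 and 39 tags with H3K4me1 at 10 and 13. The Lpcat4 region, 8.52 kb from the start site, had FLAG at 10 and 42 tags and an AP-1 site. In the 10 regions with the highest scores the log2 FLAG ratios ran from 0.34 at Tm4sf1 to 2.07 at Lpcat4. The ranking used the NanogBiD FLAG score and so favoured high NanogBiD summits, and nothing is read from this direction. H3K4me1 was called in both arms at 8 of these 10, in NanogBiD only at Tmem117 and in neither arm at Nmbr. The Nmbr region lay 1263 kb from the gene.

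**Figure D4:**
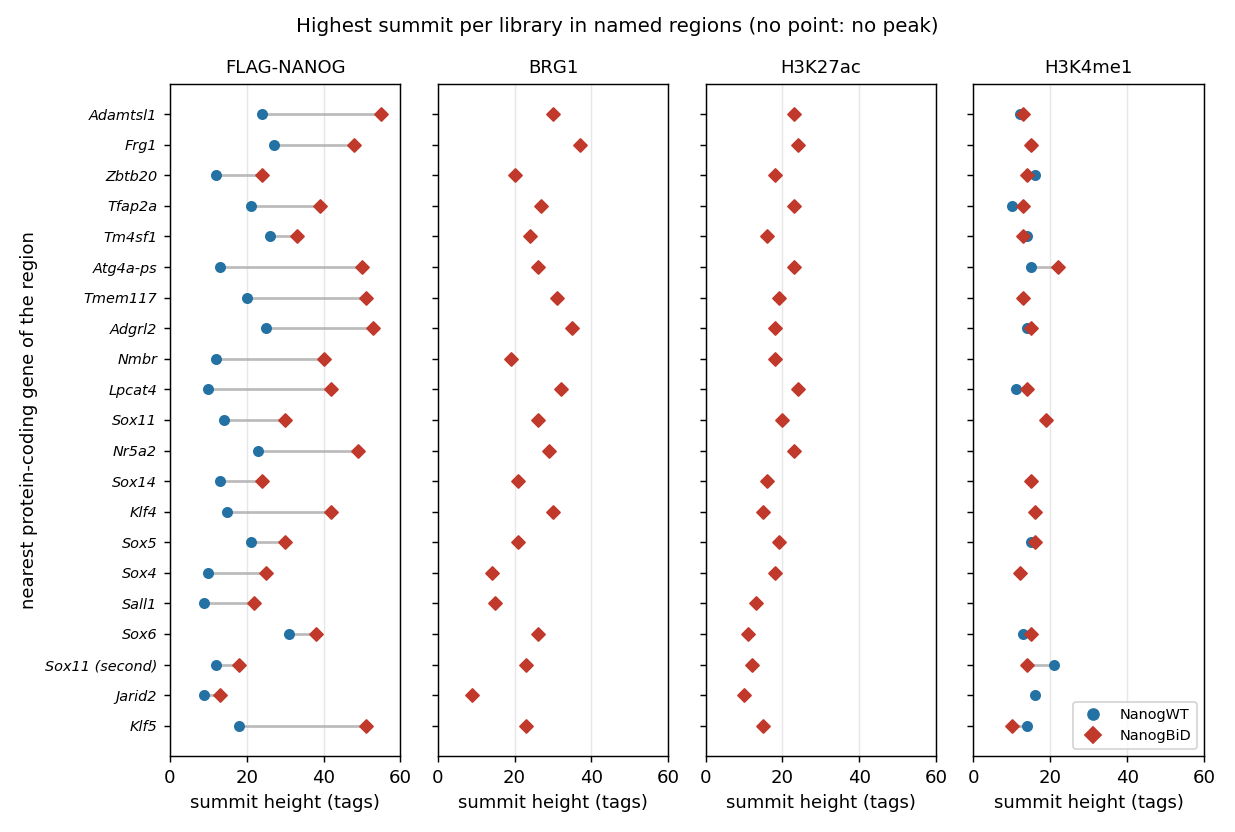
Summit height in tags (x axes) of the highest peak of each library at the 10 gained regions with the highest scores and at those named for a pluripotency or SOX gene (rows, by nearest protein-coding gene; regions named only for a composite OCT-SOX match are not drawn), in NanogWT (circles) and NanogBiD (diamonds). The rows were ranked by NanogBiD scores, FLAG included, which favours the higher NanogBiD FLAG points seen in them, BRG1 and H3K27ac have no NanogWT point because the rule required it, and H3K4me1 points lie between 10 and 22 tags.

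Among pluripotency genes, the Nr5a2 region on chromosome 1 from 137132403 to 137135851 had the strongest peaks. It lay 174 kb from the start site. Nr5a2 encodes a nuclear receptor that can act in place of Oct4 in reprogramming. FLAG was at 23 tags in NanogWT and 49 in NanogBiD, BRG1 at 29, H3K27ac at 23, and no H3K4me1 was called. The region nearest to Klf4, a core reprogramming factor, was 389 kb away and had FLAG at 15 and 42 tags, BRG1 at 30 and H3K4me1 at 16 tags in NanogBiD only. The Klf5 region, 114 kb from the gene, had FLAG at 18 and 51 tags with H3K4me1 lower in NanogBiD, 10 tags against 14. The Sall1 region, 281 kb from the gene, had FLAG at 9 and 22 tags. The Jarid2 region lay 469 kb from this gene for a cofactor of Polycomb complex PRC2. Its FLAG summits were at 9 and 13 tags, with H3K4me1 in NanogWT only.

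SOX family genes, which encode HMG-box transcription factors, were the nearest genes of 15 gained regions. The strongest Sox11 region lay 244 kb from the gene on chromosome 12, with FLAG at 14 and 30 tags, BRG1 at 26, H3K27ac at 20 and H3K4me1 at 19 tags in NanogBiD only. A weaker Sox11 region, 161 kb from the gene, had FLAG at 12 and 18 tags, and its H3K4me1 summit was lower in NanogBiD, 14 tags against 21. At Sox14 and Sox4, 36.2 and 35.2 kb away, FLAG was at 13 and 24 tags and at 10 and 25 tags, and H3K4me1 was called in NanogBiD only at both. The strongest Sox5 and Sox6 regions lay 316 and 96.0 kb from these genes. They had H3K4me1 in both arms, with FLAG at 21 and 30 tags (log2 ratio 0.51) and at 31 and 38 tags (0.29).

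The 4 composite OCT-SOX regions differed among themselves. They lay 400 kb (Tmem117), 519 kb (Pla2g4a), 17.8 kb (Gtpbp4) and 12.9 kb (Ctnnd1) from the gene start site. The lowest of the 3 NanogBiD scores was 301 at Tmem117 and 121 at Pla2g4a. It was 52.2 at Gtpbp4 and 58.0 at Ctnnd1, near the lowest listed value of 50. At Tmem117 FLAG was at 20 and 51 tags, BRG1 at 31 and H3K27ac at 19, and at Pla2g4a FLAG was at 12 and 26 tags. H3K4me1 was called in NanogBiD only at both. At Gtpbp4 FLAG was at 18 and 36 tags, BRG1 at 23 and H3K27ac at 10, with H3K4me1 at 18 and 16. At Ctnnd1, which encodes the adhesion protein p120 catenin, FLAG was lower in NanogBiD, 25 tags against 38, and no H3K4me1 was called.

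Each gained region was linked to its nearest protein-coding start site, and 3019 of 21924 genes, 13.8%, had at least 1. Of these genes 2123 had a single region and none had more than 9. Adgrl2 (a latrophilin adhesion receptor), Tenm4 (a teneurin) and Zfp608 had 9 each and Flrt2 had 8. These genes also had many candidate regions. The number of regions with shared NANOG and BRG1 in NanogBiD only was 18, 16, 18 and 19 in that order, and that of all shared NANOG regions 32, 43, 45 and 29. Next came 13 genes with 7 each, of which Cacna2d3 is named because it is first in the alphabet. The 9 Adgrl2 regions were spread over 1963 kb, with log2 FLAG ratios from -1.24 to 1.30 (median 0.83), BRG1 heights of 10 to 35 tags and H3K27ac heights of 8 to 18. The 9 Zfp608 regions spanned 818 kb and all had a higher FLAG summit in NanogBiD (log2 0.17 to 1.18). The 8 Flrt2 regions did as well (0.30 to 2.0), while those of Tenm4 (-0.51 to 1.09) and Cacna2d3 (-0.81 to 1.0) included lower summits.

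The gene lists showed how much the link matters. A gained region was nearest to 11 of 40 pluripotency genes, 27.5%, but only 4 of 40, 10%, had a gained region within 100 kb, where all protein-coding genes had 28.2%. The list order therefore turned with the rule for linking. By nearest start site, gained regions were linked to 4 of 30 epithelial, 15 of 40 mesenchymal, 9 of 28 somatic transcription factor, 3 of 26 BAF subunit, 10 of 40 TGF-beta and BMP, 8 of 19 SOX and 9 of 35 lineage transcription factor genes. Within 100 kb the numbers were 10, 18, 11, 9, 13, 7 and 13. The mesenchymal genes included Fn1, Vim, Twist1, Zeb1, Zeb2 and Col5a1. As shares, 42.1% of SOX, 37.5% of mesenchymal, 32.1% of somatic transcription factor, 25.7% of lineage transcription factor and 25% of TGF-beta and BMP genes were linked by nearest start site, beside 13.8% of all genes, and 13.3% of epithelial and 11.5% of BAF subunit genes. Within 100 kb the shares of these 7 lists lay between 32.5% (TGF-beta and BMP) and 45.0% (mesenchymal), beside 28.2%. Regions without H3K27ac were nearest to 8 of 19 SOX, 14 of 40 mesenchymal and 12 of 28 somatic transcription factor genes. They were nearest to 15 of 35 lineage transcription factor, 17 of 40 TGF-beta and BMP and 17 of 40 pluripotency genes. For epithelial and BAF subunit genes the numbers were 5 of 30 and 5 of 26, and for all protein-coding genes 3594 of 21924. Links to these lists were thus not particular to gained regions. Lists were small and were not tested.

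A gained region lay at the promoter itself in 343 of 21924 protein-coding genes, 1.56%. Among listed genes these were Nr5a2 (1 of 40 pluripotency genes), Grhl2 (an epithelial transcription factor, 1 of 30), Bmp4 (1 of 40 TGF-beta and BMP genes) and Sox6 (1 of 19 SOX genes), and the other 4 lists had none. With so low a share over all genes, nothing is read from these counts. The microRNA gene Mir302a also had one. At Mir302a, whose microRNA family is abundant in pluripotent cells, FLAG was at 8 tags in NanogWT and 30 in NanogBiD, BRG1 at 18 and H3K27ac at 12, and no H3K4me1 was called. At the Nr5a2 promoter FLAG was at 14 and 24 tags, BRG1 at 7 and H3K27ac at 9, close to the lowest heights in the lists, and H3K4me1 was called in NanogWT only, at 24 tags. At the Bmp4 promoter FLAG was at 15 and 17 tags and H3K27ac at 16, and at Grhl2 FLAG was at 13 and 16 tags with H3K4me1 at 24 in NanogWT and 13 in NanogBiD. At the Sox6 promoter FLAG was at 10 and 13 tags, BRG1 at 13 and H3K27ac at 10, and no H3K4me1 was called. BRG1 and H3K27ac were both at 10 tags at Grhl2. The lowest of the 3 NanogBiD scores was 50.8 at Sox6, 51.5 at Grhl2 and 53.1 at Nr5a2, close to the lowest listed value of 50. It was 78.0 at Bmp4 and 139 at Mir302a.

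The label of the cells was checked with H3K27ac at promoters of marker genes. Of 10 fibroblast markers 9 had a peak in both arms, with Prrx1 as the exception. Of 10 pluripotency markers none had a peak in NanogWT and 3 (Dppa3, Sall4 and Tdgf1) had one in NanogBiD, while Pou5f1, Nanog, Sox2 and Esrrb had none in either arm. The promoters of those 3 genes were not among the gained regions. The share of cells that had begun to change was not measured, and its part in the gained H3K27ac was not tested.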

How the data were processed

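Per the methods of the study and the labels, the authors trimmed reads with Trim Galore 0.6.4, aligned them to mm10 with Bowtie2 2.4.5, filtered out repeats, low-quality alignments and mitochondrial reads (SAMtools 1.16.1), merged replicates and called peaks with MACS 1.4.2, with no control library named. The deposited peak score is the MACS significance score, and the deposited summit signal is a tag pileup. The methods also state that signals were normalized to the number of reads, but the deposited summit signals are whole tag numbers, so heights were taken as not scaled to depth. Tag totals are not in the lists used here, so depth is unknown, and a deeper library gives more peaks. The labels and the methods name different library kits and cell numbers, and the label of the H3K4me1 antibody reads H3K4me.

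Peaks were joined to summits by name and merged where they overlapped or touched, and an overlap needed 1 bp. The highest summit of each list stood for a region. Annotation was GENCODE on GRCm38, and sequence was the RefSeq copy of GRCm38. Python 3.11.15, pandas 2.3.3, NumPy 2.4.6, SciPy 1.17.1 and matplotlib 3.10.9 were used, and the classification was tested on simulated data. Members, gene lists and naming rules were chosen with earlier results of these data known. Named regions were the 10 with the highest lowest NanogBiD score, up to 12 nearest to pluripotency, epithelial or SOX genes, the 5 genes with most regions and the regions with a composite OCT-SOX match. No sequence from chromosome 18 was printed, and 1 region that the naming rule selects is not reported here. Alternatives were stricter scores and heights, equal list sizes, other distances and windows, and scores in place of heights.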

Additional observations from a re-analysis of the deposited data

How the results depend on the processing

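No paired analysis was possible because replicates were pooled into a single library per group before deposit. Of 117 recomputed values, 51 stayed within the interval of the reported value or, for counts, within 1.5 times it, 64 left it and 2 turned direction. For values that moved, the cause was not tested. Values stayed within those limits with H3K27ac counted within 1 kb, no NanogWT BRG1 peak within 1 kb, merging across 500 bp, and chromosomes 1 to 19 and X only.

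With scores of at least 100 in all lists there were 2575 gained regions, 28.5% of those with BRG1 in NanogBiD only. H3K4me1 was then in NanogBiD only in 12.9%, NanogWT only in 14.4%, both in 23.0% and neither in 49.7%. The difference turned to -1.51 percentage points where 8.12 was reported, with an interval of -3.53 to 0.503 that reached both directions. The median FLAG log2 ratio was 0.50. With lists cut to their 20000 top-scoring peaks the values were 836, 30.1%, 21.4%, 7.06%, 19.4%, 52.2%, 14.4 points and 0.50, and the mirrored share was 16.3%. With presence at scores of at least 100 and absence of any peak there were 1027 regions, 20.2%, the mirrored share was 7.14%, H3K4me1 was in NanogWT only in 9.83%, both in 52.7% and neither in 17.2%, a difference of 10.4 points, and the FLAG ratio was 0.66. With absence extended to peaks scoring under 100 the values were 9450, 42.9% and, for the mirrored rule, 35.5%. H3K4me1 was then in NanogBiD only in 14.8%, NanogWT only in 13%, both in 51.0% and neither in 21.1%, a difference of 1.80 points, and the FLAG ratio was 0.40. Summit windows of 100 bp gave shares of 29.7% and, mirrored, 12.4%, and H3K4me1 shares of 21.6%, 10.2%, 39.9% and 28.3%, a difference of 11.3 points. Heights of at least 15 tags gave 2085 regions, a mirrored share of 10.5% and H3K4me1 shares of 14.0%, 18.3%, 27.9% and 39.9%. The turned difference was -4.32 points (-6.75 to -1.89), and the FLAG ratio 0.42. Scores in place of heights gave 0.63.

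Promoters of 1 kb held 9.27%. Motif windows of 25 bp, which are shorter, gave 3.45% for AP-1, 1.55% for OCT, 2.79% for SOX, 0.0221% for OCT-SOX, 5.31% for NANOG, 3.08% for TEAD, 1.66% for RUNX and 0.199% for KLF. NanogWT FLAG summits gave 5.91% for AP-1, 2.94% for OCT and 8.03% for NANOG. Start sites within 100 kb linked 4 pluripotency, 10 epithelial and 9 BAF subunit genes and 6179 protein-coding genes in all. The split by NanogBiD FLAG height was chosen after seeing the data.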
